A study of Homo sapiens with 50 samples.

Results

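The genes described here are 10 direct feedback targets of WNT/beta-catenin signalling: AXIN2, NKD1, LEF1, SP5, DKK1, NOTUM, APCDD1, RNF43, ZNRF3 and LGR5. They were matched by symbol, and each had 1 row among the 57905 genes of each expression table. RNA was sequenced from H1, an established human embryonic stem cell line of wild-type genotype, as undifferentiated cells on day 0 and in 6 treatments on each of days 3, 5, 7 and 11, with 2 libraries a group and 50 libraries in all. The series asks how pH modulation acts on differentiation into mesendoderm, and on cardiac differentiation driven by a WNT inhibitor.

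All treated cultures carry the same cardiac differentiation label. The differentiation control received none of the listed additions, and the other cultures received HCl, NaHCO3, IWP2, IWP2 with NaHCO3, or IWP2 with NaHCO3 and 2-DG. IWP2 inhibits Porcupine, the acyltransferase that WNT proteins need for secretion. HCl and NaHCO3 are an acid and a base, and 2-DG stands for 2-deoxyglucose, a sugar that blocks the first steps of glycolysis. Doses and times of addition are not given in the sources used here. All libraries come from 1 cell line, and the labels do not say whether the 2 libraries of a group came from separate cultures, so p-values measure only the spread between these libraries.

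In the canonical pathway, a WNT protein bound to Frizzled and LRP5 or LRP6 stops the destruction complex from marking beta-catenin for degradation, and beta-catenin then acts with TCF and LEF factors on target genes. Several of those targets act back on the pathway, so that their RNA is widely read as a measure of its activity. WNT signalling induces the primitive streak and mesoderm from pluripotent cells, and its later inhibition is used to direct mesoderm to heart muscle. AXIN2 is a scaffold of the destruction complex and NKD1 binds Dishevelled, both within the cell. LEF1 and SP5 are transcription factors. DKK1 blocks LRP5 and LRP6, NOTUM removes the lipid from WNT proteins, and APCDD1 is a membrane-bound inhibitor. RNF43 and ZNRF3 are ubiquitin ligases that clear Frizzled from the cell surface, and LGR5 is an R-spondin receptor through which those ligases are held back.

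The start of SP5 and of DKK1 is shown because TCF and LEF factors bind a short core motif, and because these promoters held the most matches among the members with a sequence to search. The motif was searched as CTTTGA and CTTTGT on both strands in the 250 bases before each start, in RefSeq sequence of GRCh38.p14, and 5 members had 6 windows. Capitals mark the matches, and TCAAAG and ACAAAG are the same motifs on the opposite strand. The SP5 window lies at chr2:170715087-170715336 on the plus strand and the DKK1 window at chr10:52314031-52314280 on the plus strand.
SP5: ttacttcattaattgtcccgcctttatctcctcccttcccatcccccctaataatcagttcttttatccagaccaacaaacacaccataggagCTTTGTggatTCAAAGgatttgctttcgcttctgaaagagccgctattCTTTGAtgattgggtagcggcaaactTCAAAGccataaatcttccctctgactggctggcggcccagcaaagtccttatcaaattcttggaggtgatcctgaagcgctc
DKK1: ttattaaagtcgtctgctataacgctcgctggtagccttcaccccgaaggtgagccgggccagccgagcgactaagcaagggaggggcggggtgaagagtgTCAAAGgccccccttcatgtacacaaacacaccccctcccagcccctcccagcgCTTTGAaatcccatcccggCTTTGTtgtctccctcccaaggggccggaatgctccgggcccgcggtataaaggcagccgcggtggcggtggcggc
SP5 had 4 matches and DKK1 had 3, while each of the 2 RNF43 windows had 1 and the LEF1 and APCDD1 windows had 0. AXIN2, NKD1, NOTUM, ZNRF3 and LGR5 had no sequence to search. Of 35116 windows of the same length, 22.8% held at least 1 match, 0.584% at least 3 and 0.057% at least 4. SP5 and DKK1 were picked by their match counts, so these shares are no test of them. A match describes the sequence alone and is no measure of binding.

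Library totals ran from 14794134 to 22796553 counts in the table of days 3 and 5 and from 14090004 to 20445875 counts in the table of days 0, 7 and 11. Levels are given as FPKM, which divides counts by exonic length and library total, and tests were run on the counts within a table, never between tables. A gene was called where edgeR's quasi-likelihood test gave an adjusted p under 0.05 over all genes tested and a change of at least 1 on the log2 scale, up or down. Fold changes below come from that test, except where a floor or a ratio of counts is named, and many are followed by their standard error (SE). Pluripotency markers (POU5F1, NANOG, SOX2, LIN28A, DPPA4, TDGF1) summed to 1831 and 1845 FPKM on day 0 and to 37.1 and 40.4 FPKM in the day 11 control, so the labelled starting cells held their defining markers. The 2 libraries with 2-DG on day 3 lay farther apart than those of any other group, with a root mean square log2 difference of 0.787 between them. All 10 members passed the filter on low values in both tables. Of 117 called results of members, 52 were not called by limma on log2(FPKM + 1), a scale that understates the change of genes near or below 1 FPKM, and 0 changed direction. In bulk RNA, fewer cells of a type and less RNA per cell cannot be told apart.

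The feedback targets peaked at different times in the differentiation control. SP5 was listed at 0 in both undifferentiated libraries and stood at 52.1 and 56.0 FPKM on day 3, then at 17.1 and 14.9 FPKM on day 5, 0.83 and 1.12 FPKM on day 7 and 0.27 and 0.14 FPKM on day 11. LEF1 stood at 0.10 and 0.13 FPKM on day 0, 16.3 and 12.2 FPKM on day 3, 33.6 and 32.9 FPKM on day 5, 27.3 and 27.4 FPKM on day 7 and 19.8 and 17.9 FPKM on day 11. The SP5 libraries of each day therefore lay below those of the differentiation day before, while LEF1 was highest on day 5. Days 5 and 7 come from different tables, so that step was not tested, and day and table cannot be told apart in it. LGR5 was high on both days 3 (30.7 and 23.6 FPKM) and 5 (25.3 and 28.3 FPKM) and low on days 0 (0.29 and 0.25 FPKM), 7 (2.92 and 2.42 FPKM) and 11 (0.26 and 0.60 FPKM).

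DKK1 followed another course (levels of days 0, 7 and 11 come from the other table than those of days 3 and 5), with counts of 0 and 2 on day 0, 9.27 and 9.99 FPKM on day 3, 7.95 and 7.08 FPKM on day 5, 4.44 and 5.19 FPKM on day 7 and 38.6 and 34.2 FPKM on day 11. Its day 11 libraries were the highest of the control. AXIN2 was steadier, at 6.84 and 5.75 FPKM on day 0, 9.46 and 8.97 FPKM on day 3, 6.21 and 6.48 FPKM on day 5, 5.52 and 6.11 FPKM on day 7 and 4.71 and 4.38 FPKM on day 11. Across all 50 libraries ZNRF3 varied least, from 2.30 to 6.83 FPKM.

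From day 3 to day 5 of the control, 2 members rose, LEF1 (2.42-fold, log2 1.28, SE 0.13, adjusted p 7.87e-08) and RNF43 (4.67-fold, log2 2.22, SE 0.23, adjusted p 1.99e-07), against 10.4% of all genes. SP5 (3.25-fold lower, adjusted p 9.32e-08) and NOTUM (5.51-fold lower, adjusted p 1.53e-06) fell, against 7.74% of all genes. On day 7 against day 0, LEF1, SP5, DKK1 and LGR5 rose, against 19.3% of all genes, and NOTUM and APCDD1 fell, against 15.6%. LEF1 was 213-fold higher (adjusted p 1.24e-27). With the floor of 3 counts in each undifferentiated library, SP5 was at least 11.6-fold higher on day 7. For DKK1 the ratio of 406 to 2 counts, scaled to library totals, was 185 (95% exact interval 50.9 to 1533, counting error only). DKK1 (7.89-fold, adjusted p 1.98e-07) and NOTUM (2.33-fold, adjusted p 0.0319) rose from day 7 to day 11, against 7.64% of all genes, while SP5 (4.46-fold lower, adjusted p 4.57e-04) and LGR5 (5.96-fold lower, adjusted p 5.67e-09) fell, against 2.76%. The NOTUM change of day 11 lost its call without control replicate 1 (log2 1.61, adjusted p 0.0618) or control replicate 2 (log2 0.70, adjusted p 0.514), and the SP5 change lost it without control replicate 2 (log2 -1.58, adjusted p 0.0828). Without control replicate 2, RNF43 (log2 -1.03) and NKD1 (log2 -1.20) were called as falling. The control itself changed its cell type markers over these days: the summed cardiac muscle markers (TNNT2, MYH6, MYL7, NKX2-5, ACTN2, MYL4) ran from 3.40 to 3.53 FPKM on day 0 and from 577 to 809 FPKM on day 11, and the summed liver and foregut markers (AFP, APOA1, APOA2, TTR, FOXA2, HNF4A) from 0.13 to 0.15 FPKM and from 4051 to 4829 FPKM, and their part in the members' course was not tested.

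**Figure D1:**
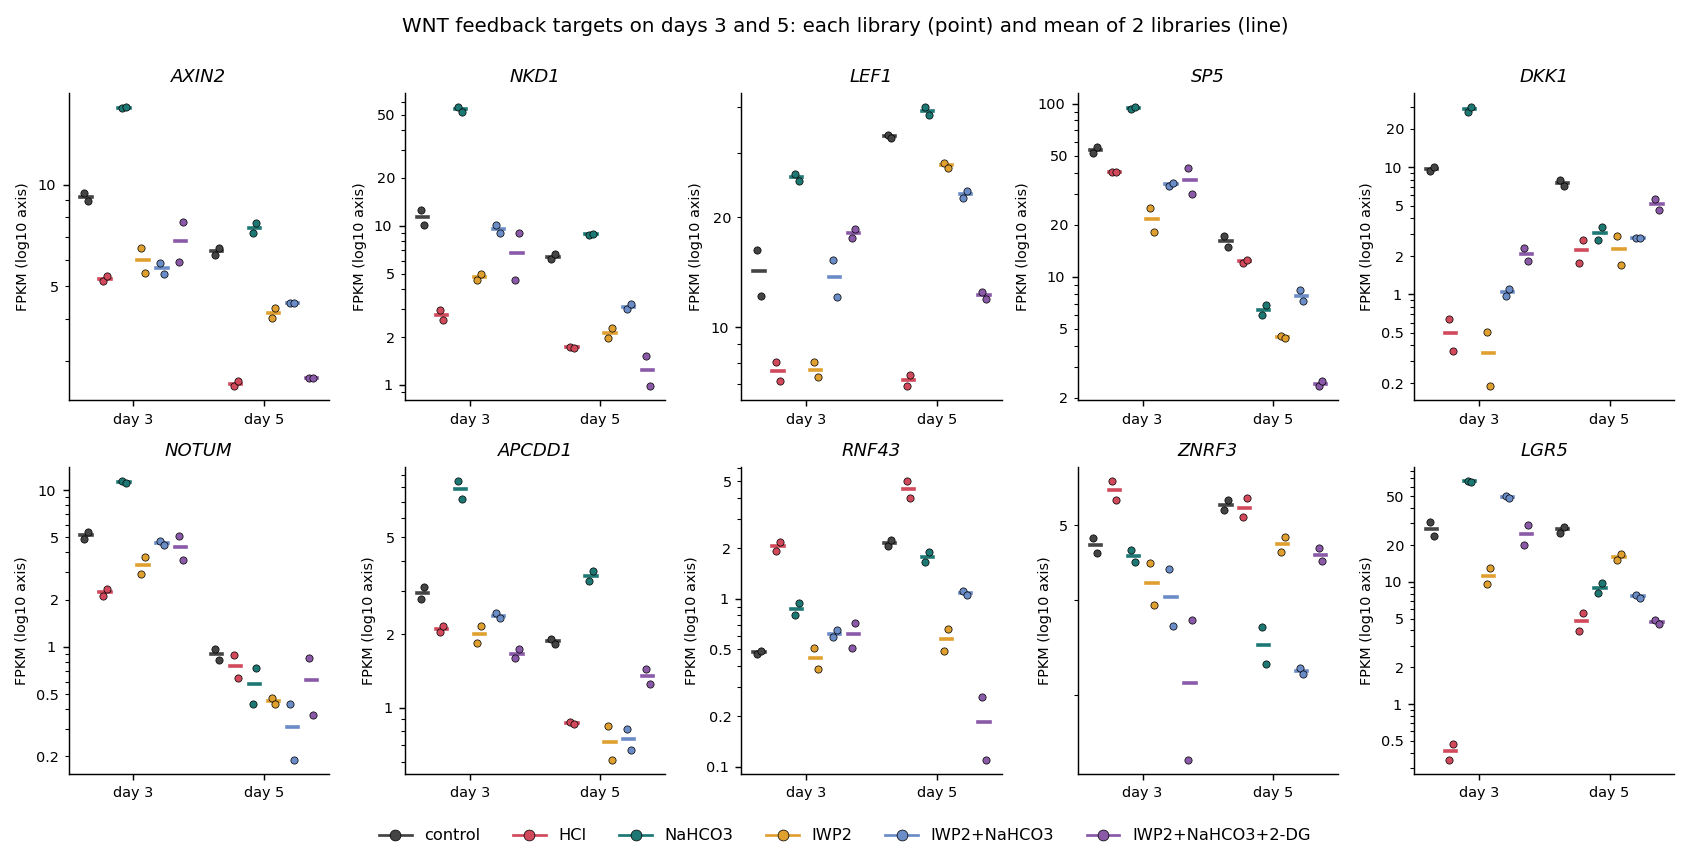
Levels of the 10 members on days 3 and 5, as FPKM on a log10 axis, with a point for each library and a line at the mean of 2 libraries, in 6 treatments. The NaHCO3 libraries of day 3 are the highest of that day for 8 of the 10 members by mean, and the HCl libraries of day 3 are at 0.35 and 0.47 FPKM for LGR5.

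With IWP2, the log2 fold change of every member against control was below 0 on days 3 and 5, with a median of -0.75 on day 3 and -1.17 on day 5, beside medians of -0.01 and 0.00 over all genes tested. The calls of day 3 were NKD1, SP5, DKK1 and LGR5, so that 4 of 10 members fell, against 0.451% of all genes, and 0 rose, against 0.162%. The 106 genes called over all genes in that comparison became 50 to 63 without 1 of its 4 libraries, and 165 or 166 without a 2-DG library of day 3, which enters the shared spread. On day 5 the calls were NKD1, SP5, DKK1, APCDD1 and RNF43, so that 5 of 10 fell, against 4.84% of all genes, and 0 rose, against 1.93%. Of the 4 called on day 3, DKK1 fell furthest, to 0.51 and 0.19 FPKM (19 and 7 counts) from 9.27 and 9.99 FPKM in control. On day 5 DKK1 stood at 2.88 and 1.69 FPKM with IWP2 and 7.95 and 7.08 FPKM in control. All comparisons with control on a day share the same 2 control libraries.

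NKD1, the Dishevelled-binding inhibitor, stood at 12.6 and 10.2 FPKM in the day 3 control and 4.55 and 5.01 FPKM with IWP2 (2.37-fold lower, log2 -1.25, SE 0.19, adjusted p 0.00131). On day 5 it stood at 6.16 and 6.61 FPKM in control and 1.96 and 2.29 FPKM with IWP2 (2.99-fold lower, log2 -1.58, SE 0.20, adjusted p 1.20e-05). It was the only member called lower with IWP2 on each of the 4 days: on day 7 at 2.57 and 2.27 FPKM in control and 0.87 and 0.90 FPKM with IWP2 (log2 -1.35, SE 0.18, adjusted p 2.07e-07), and on day 11 at 1.11 and 1.22 FPKM in control and 0.58 and 0.49 FPKM with IWP2 (log2 -1.11, SE 0.22, adjusted p 7.91e-05). The groups did not overlap on any of these days. Its day 3 call was lost without control replicate 1 (log2 -1.08, adjusted p 0.0589), without IWP2 replicate 1 (log2 -1.17, adjusted p 0.0675) and when day 3 was fitted alone (log2 -1.24, adjusted p 0.0659).

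Of the transcription factors, SP5 fell 2.49-fold on day 3, with 24.8 and 18.2 FPKM under IWP2 (log2 -1.32, SE 0.17, adjusted p 1.92e-04). LEF1 stood at 8.04 and 7.31 FPKM with IWP2 on day 3, below both control libraries, by a log2 of -0.88 (SE 0.13, adjusted p 6.31e-04) under the size set for a call, and by -1.07 (adjusted p 6.66e-04), a call, without control replicate 2. On day 5 LEF1 stood at 28.2 and 27.3 FPKM with IWP2 (log2 -0.25, SE 0.12, adjusted p 0.204). The R-spondin receptor LGR5 stood at 9.61 and 12.9 FPKM with IWP2 on day 3 (2.40-fold lower, log2 -1.26, SE 0.17, adjusted p 3.50e-04) and at 15.2 and 16.9 FPKM on day 5 (log2 -0.73, SE 0.17, adjusted p 0.00415). Both LGR5 groups lay below their control on both days.

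AXIN2, often the first gene read as a WNT target, was lower with IWP2 by less than the size of a call. It stood at 6.51 and 5.48 FPKM on day 3 (log2 -0.61, SE 0.11, adjusted p 0.00365), 4.02 and 4.30 FPKM on day 5 (log2 -0.60, SE 0.11, adjusted p 4.55e-04), 4.21 and 3.94 FPKM on day 7 (log2 -0.42, SE 0.11, adjusted p 0.00135) and 3.29 and 4.0 FPKM on day 11 (log2 -0.29, SE 0.11, adjusted p 0.0275). On each of the 4 days both IWP2 libraries lay below both control libraries. RNF43 and APCDD1 fell with IWP2 on day 5, RNF43 from 2.07 and 2.23 FPKM to 0.49 and 0.66 FPKM (3.73-fold lower, adjusted p 4.87e-06) and APCDD1 from 1.92 and 1.82 FPKM to 0.84 and 0.61 FPKM (2.56-fold lower, adjusted p 7.69e-06). The change in RNF43 differed between the days, by a log2 of -1.80 from day 3 to day 5 (SE 0.35, adjusted p 0.0024), and that of DKK1 by 3.03 (SE 0.44, adjusted p 1.39e-04). These were the 2 members called in that comparison of effects, against 4.52% of all genes. The RNF43 difference lost its call without IWP2 replicate 1 (log2 -1.38, adjusted p 0.123), where APCDD1 was called (log2 -1.19, adjusted p 0.0184). The 782 genes called in that comparison became 505 without control replicate 1 and 454 without IWP2 replicate 1.

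By day 7 the direction was mixed. NOTUM, the WNT deacylase, stood at 0.19 and 0.16 FPKM in control and 1.09 and 0.84 FPKM with IWP2 (5.82-fold higher, log2 2.54, SE 0.39, adjusted p 2.12e-06). SP5 stood at 2.13 and 2.23 FPKM with IWP2 on day 7, above the 0.83 and 1.12 FPKM of control (2.38-fold higher, log2 1.25, SE 0.33, adjusted p 0.00232). These 2 rose, against 8.50% of all genes, whereas NKD1, RNF43 (2.64-fold lower) and LGR5 (2.59-fold lower, from 2.92 and 2.42 FPKM to 0.80 and 1.12 FPKM) fell, against 7.95%. DKK1 was higher on day 7 with IWP2 (6.12 and 9.62 FPKM; log2 0.80, adjusted p 0.0284), and was called without IWP2 replicate 1 (log2 1.04, adjusted p 0.00215). On day 11 NKD1 fell, 1 of 10 members, against 8.68% of all genes, and 0 rose, against 6.24%. The share of members called on day 11 was near that of all genes. NOTUM on day 11 (0.76 and 0.77 FPKM against 0.31 and 0.48 FPKM; log2 0.99, adjusted p 0.0214) was called without control replicate 2 (log2 1.33, adjusted p 0.0223). Between day 7 and day 11 the IWP2 effect differed for 1 member, RNF43 (log2 1.03, SE 0.28, adjusted p 0.00968), against 5.79% of all genes, and without control replicate 1 (log2 0.91, adjusted p 0.096) or IWP2 replicate 2 (log2 0.71, adjusted p 0.241) it was not called. The LGR5 difference was called without control replicate 2 (log2 2.02, adjusted p 0.00674), without IWP2 replicate 2 (log2 1.90, adjusted p 0.00704) and without the low-value filter (log2 1.16, adjusted p 0.0141). DKK1 was called without IWP2 replicate 1 (log2 -1.21, adjusted p 0.018), and NOTUM with RLE size factors (log2 -1.56, adjusted p 0.0494).

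Listed WNT targets outside the members were among the genes that fell with IWP2, and no test compared the lists. On day 3, 5 of 12 tested other targets fell (against 0.451% of all genes) and 0 rose, CDX2, CDX1 and DACT1 most, and on day 5, 5 of 12 fell (against 4.84%) and 0 rose, led by CDX2, SP8 (3.33 ± 0.106 FPKM against 27.0 ± 0.0849 FPKM in control, mean ± SD, n = 2) and MYC. Among 10 WNT ligands 1 fell on day 3, WNT8A (log2 -1.96, SE 0.25, adjusted p 1.98e-04), and 1 on day 5, WNT4 (log2 -1.64, SE 0.42, adjusted p 0.0101). The Frizzled receptors FZD5 (log2 1.49) and FZD8 (log2 1.07) rose on day 3 and FZD10 (log2 -2.84) fell, of 15 receptor genes tested. Cell type markers moved with the later IWP2 results: of 6 cardiac muscle markers 4 rose on day 5, 6 on day 7 and 6 on day 11. Their summed level was 3.98 to 5.84 FPKM on day 3 (control 6.74 to 7.23 FPKM) and 5619 to 6123 FPKM on day 7 (control 409 to 465 FPKM). All 6 liver and foregut markers fell on each of days 5, 7 and 11, with sums of 41.4 to 44.3, 147 to 356 and 149 to 165 FPKM against 288 to 339, 1387 to 1408 and 4051 to 4829 FPKM in control. Of 5 matrix-rich mesenchyme markers (COL1A1, COL3A1, LUM, DCN, POSTN) 1 fell on day 5 and 5 on each of days 7 and 11, with sums on day 11 of 555 to 614 FPKM against 2909 to 2912 FPKM. Of 6 primitive streak and early mesoderm markers (T, MIXL1, EOMES, GSC, MESP1, TBX6), 1 fell and 0 rose on day 3. Their sums on day 3 were 249 to 253 FPKM with IWP2 and 246 to 266 FPKM in control. T and TBX6 are also among the other targets. On day 5, 0 rose and 0 fell. These markers also moved late, at low levels. Of 4 tested, 3 rose and 0 fell on each of days 7 and 11. Their sums on day 7 were 7.15 to 8.30 FPKM with IWP2 and 1.79 to 2.83 FPKM in control. The part of these lists in the results was not tested.

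HCl left its strongest mark on LGR5. On day 3 the 2 HCl libraries stood at 0.35 and 0.47 FPKM and the control at 30.7 and 23.6 FPKM (62.0-fold lower, log2 -5.95, SE 0.23, adjusted p 1.81e-12). On day 5 LGR5 stood at 3.99 and 5.59 FPKM with HCl against 25.3 and 28.3 FPKM (5.44-fold lower, log2 -2.44, SE 0.18, adjusted p 1.11e-09), on day 7 at 4.55 and 4.29 FPKM against 2.92 and 2.42 FPKM (log2 0.78, SE 0.21, adjusted p 0.00278) and on day 11 at 0.36 and 0.21 FPKM against 0.26 and 0.60 FPKM (log2 -0.48, SE 0.36, adjusted p 0.287). On day 7 the HCl libraries thus lay above control, by less than the size of a call, and on day 11 the groups overlapped; without control replicate 1 the day 11 difference was called (log2 -1.01, adjusted p 0.0273). The HCl effect on LGR5 differed between days 3 and 5 (log2 3.51, SE 0.29, adjusted p 2.37e-08).

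Of the 10 members, 4 fell with HCl on day 3, against 4.67% of all genes, and 1 rose, against 5.94%. On day 5, 6 fell, against 10.2%, and 1 rose, against 9.84%. RNF43 was the member that rose on both days, from 0.47 and 0.49 FPKM to 1.94 and 2.18 FPKM on day 3 (4.58-fold, log2 2.19, SE 0.23, adjusted p 7.80e-07) and from 2.07 and 2.23 FPKM to 5.06 and 3.97 FPKM on day 5 (2.16-fold, log2 1.11, SE 0.20, adjusted p 1.76e-04). It therefore moved against the other called members, and against its fall with IWP2 on day 5. The day 5 rise was under the size of a call without HCl replicate 1 (log2 0.92, adjusted p 0.00948). RNF43 overlaps SUPT4H1 on the same strand, which reached 48.8 FPKM, and the sources used here do not state how reads of overlapping genes were counted, so its level is uncertain.

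DKK1 fell with HCl on day 3, to 0.64 and 0.36 FPKM (18.2-fold lower, log2 -4.18, SE 0.32, adjusted p 1.09e-08), and on day 5, to 1.77 and 2.68 FPKM (3.27-fold lower, log2 -1.71, SE 0.26, adjusted p 1.80e-05). On day 7 it rose, to 15.7 and 16.5 FPKM against 4.44 and 5.19 FPKM in control (3.45-fold, log2 1.79, SE 0.26, adjusted p 4.53e-05), and on day 11 it was again lower, at 9.57 and 10.7 FPKM against 38.6 and 34.2 FPKM (3.39-fold lower, log2 -1.76, SE 0.23, adjusted p 1.09e-05). The HCl libraries thus lay beyond both control libraries on all 4 days, and the sign of the difference turned. DKK1 in HCl cultures was highest on day 7, and in control on day 11.

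NKD1 fell with HCl on days 3 (2.95 and 2.56 FPKM, 3.91-fold lower, adjusted p 4.58e-07) and 5 (1.73 and 1.71 FPKM, 3.62-fold lower, adjusted p 5.17e-07). AXIN2 stood at 5.17 and 5.36 FPKM with HCl on day 3 (log2 -0.73, adjusted p 3.19e-05) and fell on day 5, to 2.53 and 2.62 FPKM (2.39-fold lower, log2 -1.26, SE 0.11, adjusted p 1.70e-08). The largest fall of LEF1 in any treatment against control was that of HCl on day 5, to 6.91 and 7.43 FPKM from 33.6 and 32.9 FPKM (4.51-fold lower, log2 -2.17, SE 0.13, adjusted p 5.33e-11). LEF1 with HCl had reached 29.6 and 26.7 FPKM by day 7, where it did not differ from control (log2 0.09, SE 0.08, adjusted p 0.388) within the spread of these libraries. On day 3 LEF1 stood at 8.07 and 7.14 FPKM (log2 -0.82), and was called without control replicate 2 (log2 -1.01, adjusted p 5.13e-05).

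Between days 3 and 5, 4 members changed in their response to HCl, LEF1 (log2 -1.35), DKK1 (log2 2.47), RNF43 (log2 -1.09) and LGR5 (log2 3.51), against 16.4% of all genes. The RNF43 difference lost its call without control replicate 1 (adjusted p 0.0783), control replicate 2 (adjusted p 0.0853) or HCl replicate 2 (log2 -0.80, adjusted p 0.177). SP5 was an exception among the early targets, at 40.4 and 40.1 FPKM with HCl on day 3 (log2 -0.34, SE 0.16, adjusted p 0.124) and 12.0 and 12.5 FPKM on day 5 (log2 -0.35, SE 0.17, adjusted p 0.117). NOTUM fell on day 3, to 2.12 and 2.33 FPKM from 4.85 and 5.41 FPKM (2.17-fold lower, adjusted p 0.00414). APCDD1 fell on day 5, to 0.87 and 0.86 FPKM (2.10-fold lower, adjusted p 3.03e-05).

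On day 7 DKK1 was the 1 member that rose with HCl, against 6.36% of all genes, and 0 fell, against 7.96%. NKD1 stood at 1.38 and 1.11 FPKM with HCl on that day (log2 -0.90, adjusted p 6.42e-05), and was called without control replicate 2 (log2 -1.01) or HCl replicate 1 (log2 -1.06). On day 11, NOTUM rose, to 0.80 and 1.17 FPKM from 0.31 and 0.48 FPKM (2.66-fold, adjusted p 7.42e-04), against 8.37% of all genes, and DKK1 fell, against 12.7%. ZNRF3, the ligase related to RNF43, stood at 6.83 and 6.74 FPKM with HCl on day 11 and at 3.81 and 3.44 FPKM in control (1.98-fold higher, log2 0.99, SE 0.11, adjusted p 4.57e-09), just under the size of a call, and was called without control replicate 1 (log2 1.02, adjusted p 1.55e-06). AXIN2 was also highest in HCl on day 11, at 6.11 and 6.06 FPKM (log2 0.51, SE 0.10, adjusted p 1.18e-04). By their means 5 of the 10 members were highest in HCl among the 6 treatments of day 11, and 5 were lowest in HCl on day 3. Such shares were not counted over all genes. Between days 7 and 11 the HCl effect differed for DKK1 (log2 -3.55), RNF43 (log2 1.24) and LGR5 (log2 -1.26), 3 of 10 members, against 17.1% of all genes, and the LGR5 difference was not called without control replicate 2 (log2 -0.43, adjusted p 0.571) or HCl replicate 2 (log2 -0.97, adjusted p 0.143). Without control replicate 2 the NKD1 difference was called (log2 1.06, adjusted p 0.0105).

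Some genes of R-spondins, the ligands of LGR5, and of their other receptors LGR4 and LGR6 also fell with HCl. The R-spondin RSPO3 and the receptor LGR4 fell on day 3, 2 of 5 genes tested, against 4.67% of all genes. The median log2 fold change of these 5 was 0.31, and 0 rose. LGR4 stood at 9.70 ± 0.948 FPKM against 46.4 ± 8.07 FPKM (mean ± SD, n = 2, log2 -2.17, SE 0.15, adjusted p 3.66e-09). On day 5, 4 of 5 fell, against 10.2% of all genes, and 0 rose. Among them were RSPO4 (log2 -6.78), RSPO2 (0.070 ± 0.0283 FPKM against 5.19 ± 0.0212 FPKM, log2 -6.10) and RSPO3 (log2 -2.55). On day 7, 3 of 6 fell (against 7.96%) and 0 rose, and on day 11, 3 fell (against 12.7%) and 2 rose (against 8.37%). Of 10 WNT ligands, WNT9B (log2 -4.79) and WNT8A (log2 -2.45) fell and WNT2B (log2 2.30) rose on day 3. The Porcupine gene PORCN rose on day 5 (log2 1.06, SE 0.13, adjusted p 1.74e-06). Of the other targets 2 rose and 2 fell on day 3 and 4 rose and 3 fell on day 5, with T (log2 4.90) and MYC (log2 3.16) higher and CDX2 (log2 -4.32) lower on day 5. T also counts among the primitive streak markers. On day 3 with HCl, pluripotency markers summed to 696 to 813 FPKM against 416 to 479 FPKM in control. Of 6, 3 rose and 0 fell. Neural markers (PAX6, SOX1, SOX3, OTX2) summed to 104 to 105 FPKM against 44.6 to 52.7 FPKM, and 2 of 2 tested rose. Of 6 primitive streak markers 1 rose, of 6 cardiac muscle markers 2 rose, and 0 of either fell. Of 6 liver and foregut markers 2 fell and 0 rose. Markers of earlier cells moved with the HCl result of day 5: summed primitive streak and early mesoderm markers (T, MIXL1, EOMES, GSC, MESP1, TBX6) were 73.0 to 73.4 FPKM with HCl and 9.98 to 10.1 FPKM in control, 4 of 6 rose and 0 fell, and none was at 0 in both HCl libraries. Pluripotency markers summed to 427 to 430 FPKM with HCl against 294 to 314 FPKM, and 4 of 6 rose. Markers of later cells were lower on that day: liver and foregut markers summed to 8.68 to 8.87 FPKM against 288 to 339 FPKM (6 of 6 fell), mesenchyme markers to 44.9 to 45.6 FPKM against 733 to 848 FPKM (4 of 5 fell), and cardiac muscle markers to 327 to 338 FPKM against 514 to 518 FPKM (2 of 6 fell). On days 7 and 11 with HCl, 5 and 6 of the 6 cardiac markers rose, all 6 liver and foregut markers fell on both days, and 4 and 5 of the 5 mesenchyme markers fell. Of 4 primitive streak markers tested, 3 rose and 0 fell on each of these days. Of 5 endothelial markers (CDH5, KDR, TEK, ERG, SOX17), 1 rose and 4 fell with HCl on day 11. Their sums were 261 to 272 FPKM with HCl and 98.5 to 112 FPKM in control. The part of these lists in the members' results was not tested.

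On day 3 the direction with NaHCO3 was opposite to that with HCl for 8 of the 10 members. RNF43 and ZNRF3 had log2 fold changes above 0 with both. All 10 members had a log2 fold change above 0 with NaHCO3, with a median of 1.06 beside 0.00 over all genes. NKD1, DKK1, NOTUM, APCDD1 and LGR5 rose, 5 of 10 members, against 2.29% of all genes, and 0 fell, against 1.80%. NKD1 stood at 55.9 and 52.1 FPKM with NaHCO3 against 12.6 and 10.2 FPKM in control (4.91-fold, log2 2.30, SE 0.19, adjusted p 1.01e-07). DKK1 stood at 27.4 and 29.8 FPKM against 9.27 and 9.99 FPKM (3.08-fold, log2 1.62, SE 0.23, adjusted p 5.45e-05). APCDD1 stood at 8.54 and 7.20 FPKM against 2.78 and 3.11 FPKM (2.78-fold, log2 1.48, SE 0.15, adjusted p 9.54e-07). Each of these NaHCO3 groups was the highest of its gene on that day.

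LGR5 reached 67.3 and 65.5 FPKM with NaHCO3 on day 3 (2.54-fold, log2 1.35, SE 0.17, adjusted p 1.66e-05). NOTUM reached 11.5 and 11.0 FPKM against 4.85 and 5.41 FPKM (2.28-fold, log2 1.19, SE 0.26, adjusted p 0.00366), and lost its call without control replicate 1 (log2 1.11, adjusted p 0.076). AXIN2 stood at 16.8 and 17.0 FPKM (log2 0.93, SE 0.10, adjusted p 4.21e-06), LEF1 at 26.3 and 25.1 FPKM (log2 0.90, SE 0.12, adjusted p 4.79e-05) and SP5 at 93.4 and 95.7 FPKM (log2 0.86, SE 0.16, adjusted p 0.00118). These 3 lay above control on both libraries and just under the size of a call, and LEF1 was called without control replicate 1 (log2 1.13, adjusted p 1.18e-04). RNF43, which rose with HCl, also lay above control without a call, at 0.80 and 0.94 FPKM against 0.47 and 0.49 FPKM. ZNRF3 overlapped its control, at 4.64 and 4.48 FPKM against 4.82 and 4.60 FPKM (log2 0.01, SE 0.13, adjusted p 0.991).

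Other pathway genes also moved on day 3 with NaHCO3. Of 12 other targets 4 rose and 0 fell: MSGN1 (27.0 ± 1.53 FPKM against 0.23 ± 0.184 FPKM, mean ± SD, n = 2), CDX2 (log2 4.23), CDX1 (log2 3.77) and T (74.4 ± 0.212 FPKM against 11.2 ± 0.276 FPKM, log2 2.78). Of the ligands WNT3A (log2 2.31) and WNT5B (log2 1.62) rose, as did the R-spondins RSPO3 (log2 3.29) and RSPO4 (log2 3.01) and the WNT carrier WLS (log2 1.01, SE 0.10). These genes were named after their values were seen, since the list of genes to name covered the IWP2 and HCl comparisons. Summed primitive streak markers were 288 to 293 FPKM with NaHCO3 and 246 to 266 FPKM in control on day 3. Of 6, 1 rose and 0 fell, and the 1 that rose was T, which is in both lists. The part of the primitive streak markers in the members' rise was not tested.

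After day 3 the members no longer moved together with NaHCO3. On day 5, 0 members rose, against 2.72% of all genes, and SP5, DKK1 and LGR5 fell, against 3.67%. SP5 stood at 6.00 and 6.88 FPKM against 17.1 and 14.9 FPKM (2.42-fold lower, adjusted p 3.07e-05). DKK1 stood at 2.67 and 3.41 FPKM against 7.95 and 7.08 FPKM (2.40-fold lower, adjusted p 0.00108), and lost its call without NaHCO3 replicate 1 (log2 -1.09, adjusted p 0.0547). LGR5 stood at 8.04 and 9.82 FPKM against 25.3 and 28.3 FPKM (2.92-fold lower, adjusted p 2.09e-06). These 3 thus lay above both control libraries on day 3 and below both on day 5, while AXIN2 (7.19 and 7.68 FPKM), NKD1 (8.74 and 8.95 FPKM), LEF1 (40.0 and 38.1 FPKM) and APCDD1 (3.30 and 3.64 FPKM) stayed above both on day 5 without a call. APCDD1 was called without NaHCO3 replicate 1 (log2 1.01, adjusted p 0.00164).

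The difference in the NaHCO3 effect between days 3 and 5 was below 0 for all 10 members and called for 6, against 5.99% of all genes (1035 genes, and 676 without NaHCO3 replicate 1). The called differences were those of LGR5 (log2 -2.89, SE 0.24, adjusted p 1.16e-07), DKK1 (log2 -2.89, SE 0.34, adjusted p 6.59e-06), SP5 (log2 -2.14, SE 0.24, adjusted p 4.75e-06), NKD1 (log2 -1.79, SE 0.27, adjusted p 1.10e-04), NOTUM (log2 -1.76, SE 0.45, adjusted p 0.0143) and RNF43 (log2 -1.16, SE 0.32, adjusted p 0.0258). RNF43 lost the call without either control or either NaHCO3 replicate (adjusted p 0.141 to 0.165). NOTUM lost it without control replicate 1 (adjusted p 0.186), control replicate 2 (adjusted p 0.0573) or NaHCO3 replicate 1 (log2 -1.40, adjusted p 0.207). On day 5 the summed matrix-rich mesenchyme markers were 2330 to 2409 FPKM with NaHCO3 and 733 to 848 FPKM in control, and the cardiac muscle markers 112 to 114 FPKM and 514 to 518 FPKM. Of the mesenchyme markers 4 of 5 rose, of the cardiac markers 4 of 6 fell, and their part in the result was not tested.

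On days 7 and 11 NaHCO3 left single members high or low. APCDD1 rose on day 7, to 2.08 and 1.24 FPKM from 0.48 and 0.44 FPKM (3.96-fold, log2 1.99, SE 0.26, adjusted p 2.30e-07), against 5.08% of all genes, and LGR5 fell, to 0.41 and 0.43 FPKM from 2.92 and 2.42 FPKM (5.81-fold lower, log2 -2.54, SE 0.27, adjusted p 7.72e-09), against 5.15%. On day 11 NKD1 rose, to 5.67 and 6.01 FPKM from 1.11 and 1.22 FPKM (5.75-fold, log2 2.52, SE 0.16, adjusted p 5.94e-14), and APCDD1 to 1.24 and 1.33 FPKM from 0.60 and 0.56 FPKM (2.54-fold, adjusted p 4.49e-05), against 6.70% of all genes. DKK1 fell, to 2.86 and 2.51 FPKM from 38.6 and 34.2 FPKM (11.8-fold lower, log2 -3.56, SE 0.28, adjusted p 3.40e-08), and LGR5 to 0.16 and 0.19 FPKM (2.13-fold lower, adjusted p 0.0228), against 10.2%. NKD1 and DKK1, both inhibitors of the pathway, thus moved in opposite directions in the same 2 libraries. LEF1 stood at 8.10 and 8.75 FPKM against 19.8 and 17.9 FPKM on day 11 (log2 -0.96, SE 0.09, adjusted p 5.20e-11), just under the size of a call, and was called without control replicate 2 (log2 -1.05) or NaHCO3 replicate 2 (log2 -1.02).

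The LGR5 fall of day 11 lost its call without control replicate 2 (log2 -0.42, adjusted p 0.489), NaHCO3 replicate 1 (log2 -0.95, adjusted p 0.139) or NaHCO3 replicate 2 (log2 -1.23, adjusted p 0.065). Between days 7 and 11 the NaHCO3 effect differed for NKD1 (log2 2.11, SE 0.23, adjusted p 2.30e-08), DKK1 (log2 -3.49, SE 0.42, adjusted p 1.31e-05) and LGR5 (log2 1.45, SE 0.51, adjusted p 0.0278), 3 of 10 members, against 11.4% of all genes. The LGR5 difference was not called without control replicate 1 (log2 0.78, adjusted p 0.282), NaHCO3 replicate 1 (adjusted p 0.102) or NaHCO3 replicate 2 (adjusted p 0.179), and that of APCDD1 was called without NaHCO3 replicate 2 (log2 -1.06, adjusted p 0.0278). On day 11 the cardiac muscle markers summed to 74.3 to 76.6 FPKM with NaHCO3 and 577 to 809 FPKM in control, 5 of 6 fell, and the mesenchyme markers summed to 6343 to 6484 FPKM and 2909 to 2912 FPKM, 4 of 5 rose. The part of either in the members' results was not tested.

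**Figure D2:**
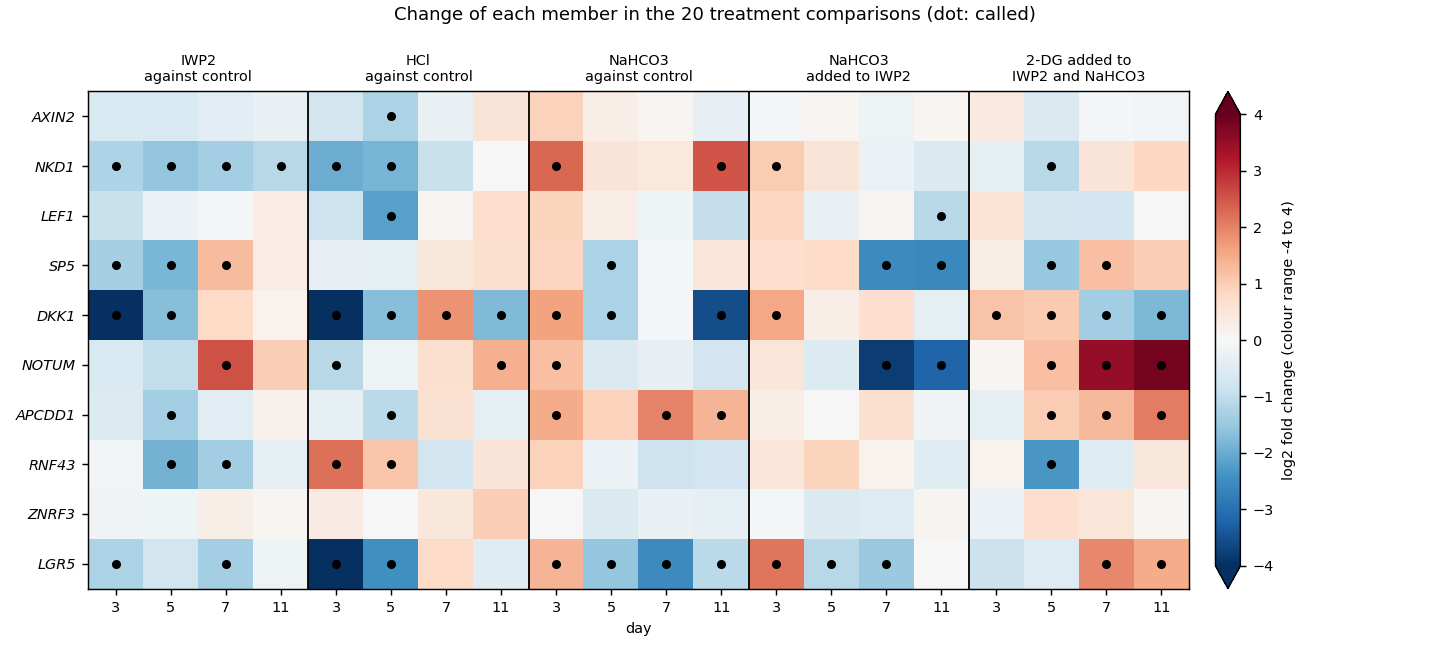
Log2 fold change of each member (rows) in 5 treatment comparisons on days 3, 5, 7 and 11 (columns), in colour from blue (lower) to red (higher), with a dot where the change was called. ZNRF3 has no dot, NKD1 has one on all 4 days with IWP2, and on day 3 the HCl and NaHCO3 columns have opposite colours for NKD1, DKK1, NOTUM and LGR5.

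NaHCO3 was also added to cultures with IWP2. On day 3, NKD1, DKK1 and LGR5 rose over IWP2 alone, 3 of 10 members, against 1.90% of all genes, and 0 fell, against 1.29%. Over all genes the 552 calls became 313 without IWP2+NaHCO3 replicate 1. LGR5 stood at 49.9 and 48.8 FPKM with both and 9.61 and 12.9 FPKM with IWP2 alone (4.40-fold, log2 2.14, SE 0.17, adjusted p 1.35e-07), so that its level with both was above control (30.7 and 23.6 FPKM). NKD1 stood at 10.1 and 9.03 FPKM with both and 4.55 and 5.01 FPKM with IWP2 alone (2.01-fold, log2 1.00, SE 0.19, adjusted p 0.00199), at the size of a call, and was not called with RLE size factors, without the low-value filter, with DESeq2 or limma, without IWP2 replicate 1 (log2 0.93), without IWP2+NaHCO3 replicate 1 (log2 0.91) or without 2-DG replicate 2 of day 3. DKK1 stood at 0.98 and 1.10 FPKM with both and 0.51 and 0.19 FPKM with IWP2 alone (2.93-fold, log2 1.55, SE 0.42, adjusted p 0.0262), far below the 9.27 and 9.99 FPKM of control. The DKK1 rise lost its call without IWP2 replicate 2 (log2 1.02, adjusted p 0.208), IWP2+NaHCO3 replicate 1 (adjusted p 0.129) or IWP2+NaHCO3 replicate 2 (adjusted p 0.16), and when day 3 was fitted alone (adjusted p 0.0533). LEF1 stood at 15.3 and 12.1 FPKM with both (log2 0.84, adjusted p 1.76e-04), and was called without IWP2+NaHCO3 replicate 2 (log2 1.00).

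AXIN2 did not follow: it stood at 5.88 and 5.44 FPKM with IWP2 and NaHCO3 on day 3 and 6.51 and 5.48 FPKM with IWP2 alone (log2 -0.08, SE 0.11, adjusted p 0.736), while NaHCO3 without IWP2 gave 16.8 and 17.0 FPKM. The NaHCO3 effect with IWP2 minus that without it, a comparison added after the data were seen, was called for AXIN2 (log2 -1.01, SE 0.15, adjusted p 0.00245), NKD1 (log2 -1.29, SE 0.27, adjusted p 0.031) and APCDD1 (log2 -1.22, SE 0.21, adjusted p 0.0112), 3 of 10 members, against 0.399% of all genes. The 69 genes called over all genes became 18 to 46 without 1 of the 8 libraries compared, and 193 or 195 without a 2-DG library of day 3. LGR5 had a difference above 0 (log2 0.79, SE 0.24, adjusted p 0.227). The plot of the NaHCO3 effect by day shows both effects for each member. None of these 3 differences was called when day 3 was fitted alone (adjusted p 0.146 for AXIN2, 0.376 for NKD1 and 0.0872 for APCDD1). NKD1 lost its call without any 1 of the 8 libraries of day 3 compared (adjusted p 0.109 to 0.214). APCDD1 lost it without control replicate 1, NaHCO3 replicate 1, IWP2 replicate 2 or either IWP2+NaHCO3 replicate (adjusted p 0.0586 to 0.121), and AXIN2 without control replicate 2, IWP2 replicate 1 or IWP2+NaHCO3 replicate 2 (log2 -0.90 to -0.97).

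On day 5 LGR5 fell when NaHCO3 was added to IWP2, to 7.79 and 7.44 FPKM from 15.2 and 16.9 FPKM (2.16-fold lower, log2 -1.11, SE 0.17, adjusted p 1.13e-04), 1 of 10 members, against 2.17% of all genes, and 0 rose, against 3.64%. RNF43, at 1.11 and 1.06 FPKM against 0.49 and 0.66 FPKM (log2 0.89, adjusted p 0.0131), was called without IWP2 replicate 2 (log2 1.13). The fall of LGR5 on day 5 therefore had the same direction with and without IWP2, and that difference of effects was not called (log2 0.44, SE 0.24, adjusted p 0.458). Called differences of effects on day 5 were those of SP5 (log2 2.04, SE 0.26, adjusted p 3.66e-05), DKK1 (log2 1.52, SE 0.36, adjusted p 0.0134) and RNF43 (log2 1.13, SE 0.31, adjusted p 0.0376), against 3.94% of all genes. DKK1 lost the call without control replicate 1, NaHCO3 replicate 1, IWP2 replicate 2 or either IWP2+NaHCO3 replicate (adjusted p 0.0603 to 0.124), and RNF43 without any library but IWP2 replicate 2 (adjusted p 0.0835 to 0.228). APCDD1 was called without IWP2 replicate 2 (log2 -1.12, adjusted p 0.0117) or IWP2+NaHCO3 replicate 1 (log2 -1.08, adjusted p 0.0384).

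On days 7 and 11 NOTUM and SP5, which IWP2 had raised on day 7, were low when NaHCO3 was added. NOTUM stood at 0.080 and 0.060 FPKM on day 7 with both and 1.09 and 0.84 FPKM with IWP2 alone (13.8-fold lower, log2 -3.79, SE 0.47, adjusted p 3.85e-08), and at 0.11 and 0.040 FPKM on day 11 against 0.76 and 0.77 FPKM (9.28-fold lower, log2 -3.21, SE 0.47, adjusted p 9.55e-07). SP5 stood at 0.51 and 0.25 FPKM on day 7 against 2.13 and 2.23 FPKM (5.87-fold lower, log2 -2.55, SE 0.38, adjusted p 1.52e-06). LGR5 stood at 0.35 FPKM in both libraries on day 7 against 0.80 and 1.12 FPKM (2.83-fold lower, adjusted p 1.35e-04). These 3 members fell on day 7, against 8.29% of all genes, and 0 rose, against 8.40%; DKK1 (12.2 and 13.9 FPKM against 6.12 and 9.62 FPKM; log2 0.67) was called as higher without IWP2 replicate 2 (log2 1.05).

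LEF1 fell on day 11, to 9.90 and 10.1 FPKM from 22.7 and 22.5 FPKM (2.15-fold lower, log2 -1.11, SE 0.08, adjusted p 1.21e-12), with NOTUM and SP5, 3 of 10 members, against 8.70% of all genes, and 0 rose, against 9.80%. The day 11 SP5 call rested on 3 counts against 18, a ratio of 6.71 after scaling to library totals (95% exact interval 1.96 to 35.6, counting error only), and was lost without IWP2 replicate 1 (adjusted p 0.238) or IWP2+NaHCO3 replicate 1 (log2 -1.55, adjusted p 0.16). The effect of NaHCO3 with IWP2 differed from that without it for 3 members on day 7, against 14.6% of all genes, and for 5 on day 11, against 18.1%. On day 7 these were SP5 (log2 -2.49, adjusted p 4.34e-04), NOTUM (log2 -3.47, adjusted p 7.59e-04) and APCDD1 (log2 -1.35, adjusted p 0.0113), of which APCDD1 lost its call without control replicate 2, NaHCO3 replicate 1 (log2 -0.93) or either IWP2 replicate (adjusted p 0.0514 to 0.0724). On day 11 they were NKD1 (log2 -3.10, adjusted p 1.52e-09), DKK1 (log2 3.19, adjusted p 3.03e-06), NOTUM (log2 -2.46, adjusted p 0.00448), APCDD1 (log2 -1.49, adjusted p 0.00184) and SP5 (log2 -3.07, adjusted p 0.0189), of which SP5 lost its call without control replicate 2 (adjusted p 0.0639), IWP2 replicate 1 (adjusted p 0.197) or IWP2+NaHCO3 replicate 1 (adjusted p 0.129). Other differences of effects were called under some settings: on day 7 RNF43 without control replicate 1, control replicate 2, IWP2 replicate 1 or IWP2+NaHCO3 replicate 1 (log2 1.03 to 1.18), LGR5 without control replicate 2 (log2 1.22) or IWP2 replicate 2 (log2 1.34), and DKK1 without IWP2 replicate 2 (log2 1.14). On day 11 LGR5 was called without control replicate 1 (log2 1.66) or IWP2 replicate 1 (log2 1.83). Without the low-value filter RNF43 (log2 1.02) and LGR5 (log2 1.07) were called on day 7, as they were with limma at a pseudocount of 0.1, and LGR5 with day 7 fitted alone (log2 1.02).

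DKK1 on day 11 shows the contrast in levels: 38.6 and 34.2 FPKM in control, 46.1 and 32.6 FPKM with IWP2, 28.6 and 29.4 FPKM with IWP2 and NaHCO3, 9.57 and 10.7 FPKM with HCl, 5.79 and 11.1 FPKM with IWP2, NaHCO3 and 2-DG, and 2.86 and 2.51 FPKM with NaHCO3 alone. The NaHCO3 libraries were the lowest of the 6 treatments, and those with HCl and with 2-DG, which overlapped, lay between them and the rest. The summed cardiac muscle markers of IWP2 cultures on day 7 were 5619 to 6123 FPKM and those with NaHCO3 added 561 to 614 FPKM, 6 of 6 fell, and the liver and foregut markers were 147 to 356 FPKM and 1168 to 1213 FPKM, 5 of 6 rose. The mesenchyme markers summed to 300 to 462 FPKM and 2172 to 2285 FPKM, and 5 of 5 rose. Of 4 primitive streak markers tested on day 7, 3 fell and 0 rose, with sums of 7.15 to 8.30 FPKM with IWP2 and 1.06 to 1.32 FPKM with both. Markers also moved on days 3 and 5 when NaHCO3 was added to IWP2. On day 3 the primitive streak markers summed to 136 to 163 FPKM with both and 249 to 253 FPKM with IWP2 alone. Of 6, 2 fell and 0 rose. Neural markers summed to 31 to 36.8 FPKM and 69 to 74.4 FPKM, and 3 of 6 cardiac muscle markers rose and 0 fell. On day 5, 6 of 6 liver and foregut and 4 of 5 mesenchyme markers rose, and 3 of 6 cardiac muscle markers fell. The part of any of these lists in the results of members on these days was not tested.

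**Figure D3:**
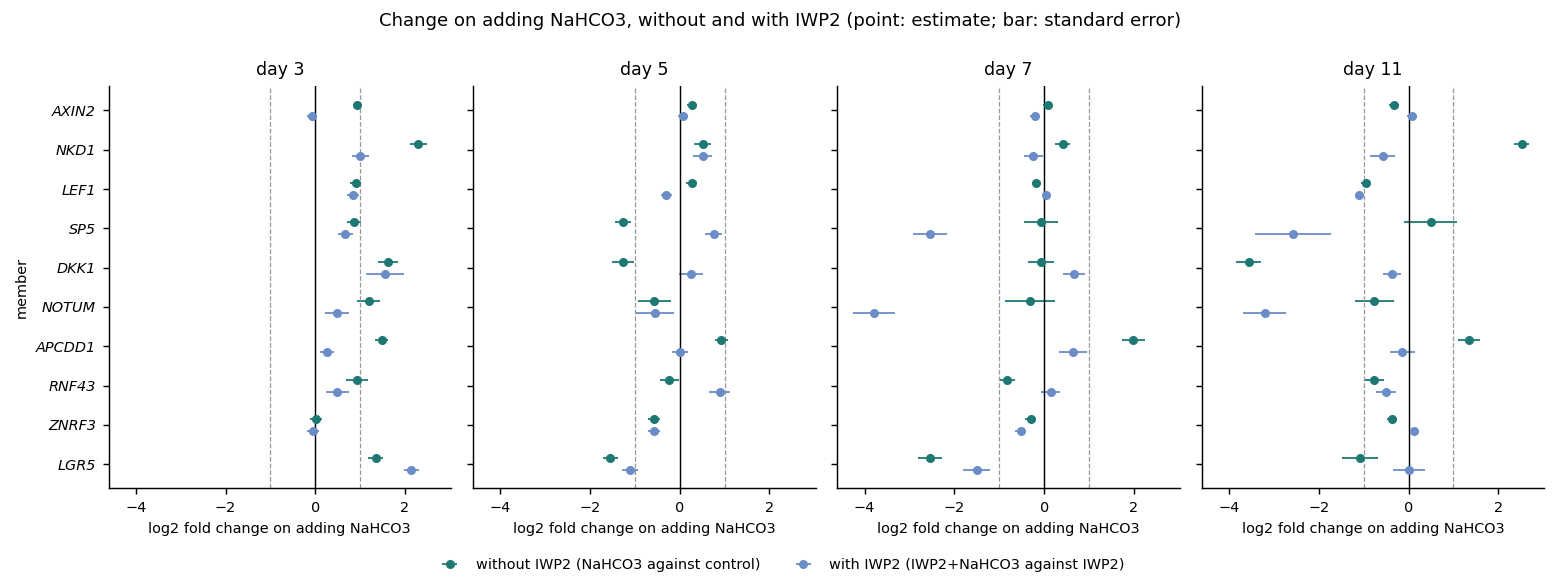
Log2 fold change on adding NaHCO3, without IWP2 (green) and with IWP2 (blue), for each member on days 3, 5, 7 and 11, with bars of 1 standard error and dashed lines at -1 and 1. On day 3 AXIN2 is at 0.93 without and -0.08 with IWP2, and on day 11 NKD1 is at 2.52 without and -0.58 with IWP2.

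Adding 2-DG to IWP2 and NaHCO3 moved NOTUM, APCDD1 and LGR5 up on days 7 and 11. NOTUM stood at 0.57 and 0.98 FPKM on day 7 with 2-DG and 0.080 and 0.060 FPKM without it (11.3-fold, log2 3.50, SE 0.48, adjusted p 2.87e-07), and at 0.93 and 1.32 FPKM on day 11 against 0.11 and 0.040 FPKM (14.3-fold, log2 3.83, SE 0.45, adjusted p 1.24e-08). The levels with 2-DG thus overlapped those of IWP2 alone on day 7 and lay above them on day 11. APCDD1 stood at 1.36 and 1.00 FPKM on day 7 against 0.51 and 0.49 FPKM (2.47-fold, adjusted p 1.13e-04), and at 1.62 and 2.97 FPKM on day 11 against 0.63 and 0.48 FPKM (4.13-fold, adjusted p 2.19e-08). LGR5 stood at 1.15 and 1.37 FPKM on day 7 against 0.35 FPKM in both libraries (3.77-fold, adjusted p 2.68e-06), and at 1.10 and 0.82 FPKM on day 11 against 0.37 and 0.32 FPKM (2.82-fold, adjusted p 1.39e-04). In each of these the 2-DG libraries lay above the others.

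DKK1 moved the other way late and the same way early. On day 3 it stood at 2.33 and 1.83 FPKM with 2-DG against 0.98 and 1.10 FPKM (2.21-fold, log2 1.14, SE 0.32, adjusted p 0.0198), and on day 5 at 5.61 and 4.61 FPKM against 2.80 and 2.79 FPKM (2.07-fold, log2 1.05, SE 0.25, adjusted p 0.00234). It fell on day 7, to 4.95 and 4.47 FPKM from 12.2 and 13.9 FPKM (2.62-fold lower, log2 -1.39, SE 0.27, adjusted p 4.88e-04), and on day 11, to 5.79 and 11.1 FPKM from 28.6 and 29.4 FPKM (3.45-fold lower, log2 -1.79, SE 0.24, adjusted p 1.43e-05). DKK1 on day 3 was the 1 member that rose, against 1.50% of all genes, and 0 fell, against 2.09%. Those shares depended on single libraries: the 620 genes called became 2416 (913 higher, 1503 lower) without 2-DG replicate 2, 382 without IWP2+NaHCO3 replicate 1 and 375 without IWP2+NaHCO3 replicate 2. Its day 3 call was lost without either IWP2+NaHCO3 replicate (adjusted p 0.116 to 0.151), without 2-DG replicate 1 (log2 0.86, adjusted p 0.0965) and with day 3 fitted alone (adjusted p 0.0602). LGR5 on day 3, at 20.01 and 29.3 FPKM against 49.9 and 48.8 FPKM (log2 -0.87, SE 0.17, adjusted p 0.00183), was called as lower without 2-DG replicate 2 (log2 -1.07).

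On day 5, DKK1, NOTUM and APCDD1 rose with 2-DG, against 7.04% of all genes, and NKD1, SP5 and RNF43 fell, against 9.42%. RNF43 stood at 0.26 and 0.11 FPKM against 1.11 and 1.06 FPKM (4.99-fold lower, log2 -2.32, SE 0.27, adjusted p 1.15e-06). SP5 stood at 2.33 and 2.50 FPKM against 8.37 and 7.21 FPKM (2.87-fold lower, adjusted p 4.56e-06). NKD1 stood at 1.51 and 0.98 FPKM against 2.98 and 3.23 FPKM (2.18-fold lower, adjusted p 3.85e-04), and was under the size of a call without 2-DG replicate 2 (log2 -0.87). The 3 rises of day 5 were weaker: without 2-DG replicate 1 none was called (log2 0.86 for DKK1, 0.39 for NOTUM and 0.87 for APCDD1), and without IWP2+NaHCO3 replicate 2 neither NOTUM (log2 0.72) nor APCDD1 (log2 0.87) was. The NOTUM libraries with 2-DG, at 0.85 and 0.37 FPKM, overlapped those without it, at 0.43 and 0.19 FPKM.

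On day 7, SP5 (0.86 and 0.82 FPKM against 0.51 and 0.25 FPKM, 2.29-fold, adjusted p 0.0216), NOTUM, APCDD1 and LGR5 rose, 4 of 10 members, against 7.10% of all genes, and DKK1 fell, against 9.23%. The SP5 call was lost without IWP2+NaHCO3 replicate 2 (log2 0.79, adjusted p 0.188) or either 2-DG replicate (adjusted p 0.0617 and 0.0619). On day 11, 3 rose, against 9.32%, and 1 fell, against 11.8%. NKD1 on day 11 (0.44 and 0.78 FPKM against 0.29 and 0.39 FPKM; log2 0.84, adjusted p 0.0078) was called without IWP2+NaHCO3 replicate 2 (log2 1.07) or 2-DG replicate 1 (log2 1.20). The cardiac muscle markers moved with these results, at 3730 to 3795 FPKM with 2-DG on day 7 and 561 to 614 FPKM without it, and at 5315 to 5813 FPKM and 330 to 345 FPKM on day 11, and 6 of 6 rose on each of these days. Of 4 primitive streak markers tested, 3 rose with 2-DG on day 7 and 2 on day 11, and 0 fell on either day. Matrix-rich mesenchyme markers fell with 2-DG, 5 of 5 on each of those days, as did 6 of 6 liver and foregut markers on day 7 and 5 of 6 on day 11. Of 5 endothelial markers 4 fell and 0 rose with 2-DG on day 11. On day 5, 4 of 6 cardiac muscle markers rose, and 6 of 6 liver and foregut and 4 of 5 mesenchyme markers fell. On day 3, 2 of 6 primitive streak markers fell and 0 rose. Their sums were 71.7 to 72.9 FPKM with 2-DG and 136 to 163 FPKM without it. The part of any of these lists in the members' results was not tested.

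**Figure D4:**
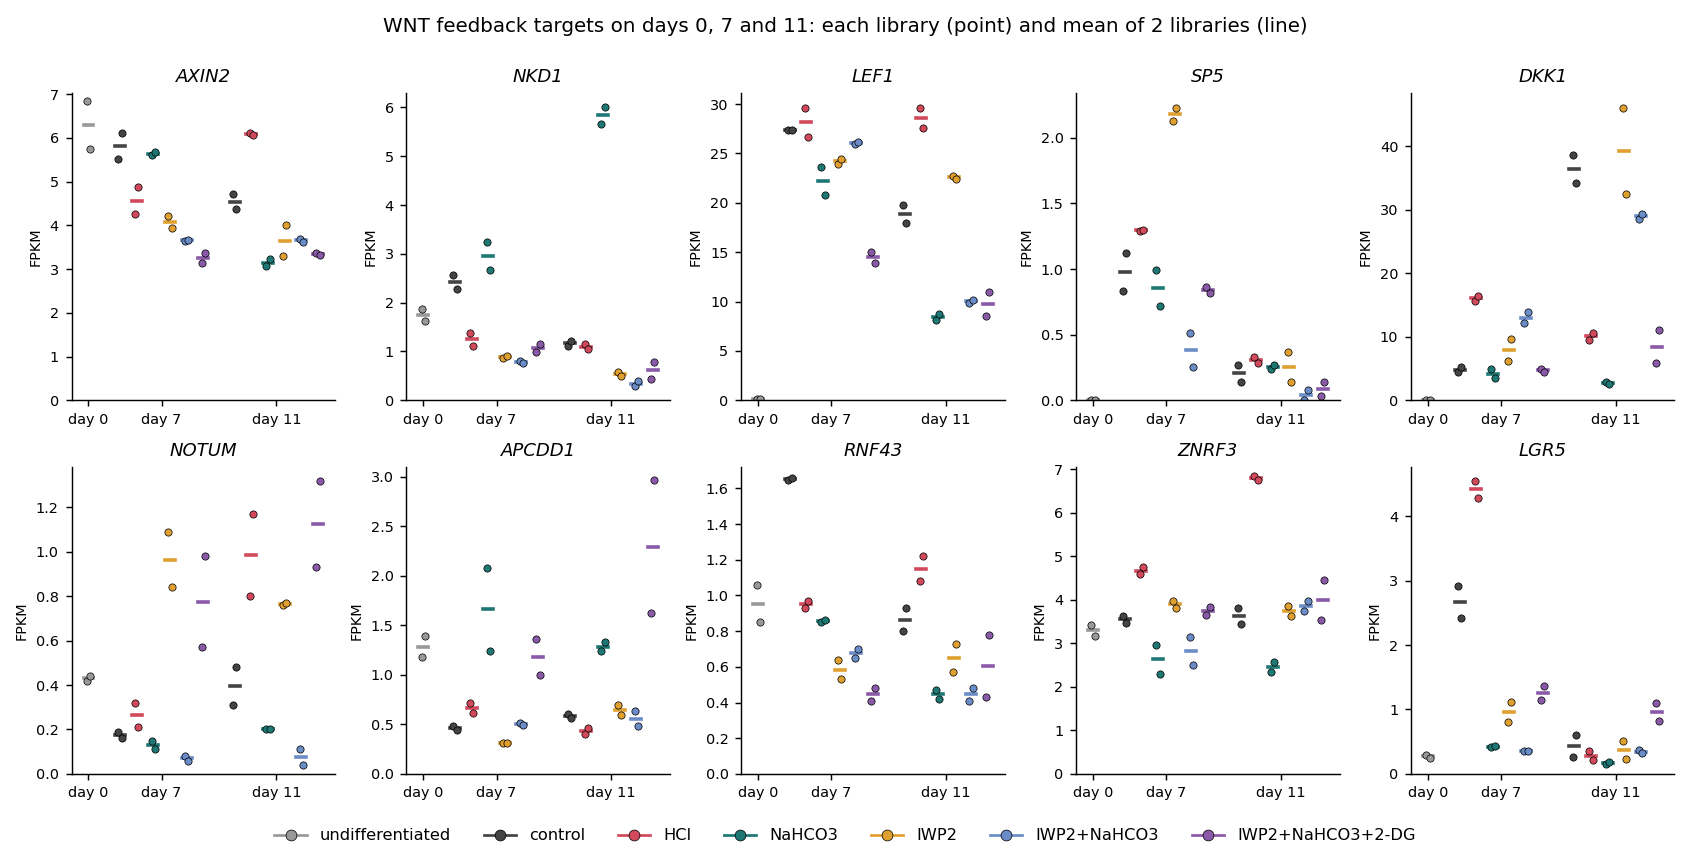
Levels of the 10 members on days 0, 7 and 11, as FPKM on a linear axis from 0, with a point for each library and a line at the mean of 2 libraries, in the undifferentiated cells and 6 treatments. NKD1 stands highest in the NaHCO3 libraries of day 11 (5.67 and 6.01 FPKM), and on day 7 the NOTUM libraries with IWP2 alone (1.09 and 0.84 FPKM) and with 2-DG (0.57 and 0.98 FPKM) overlap and lie above those of the other 4 treatments.

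By their means, NaHCO3 was the highest of the 6 treatments for 8 of 10 members on day 3 and HCl for the other two, RNF43 and ZNRF3. On day 5 control was highest for 5, NaHCO3 for 4 and HCl for 1. The share of all genes that was highest in each treatment was not counted. On day 3, AXIN2 was highest with NaHCO3, then in control, and lowest with HCl, and the 3 groups with IWP2 overlapped between these. LGR5 on that day was highest with NaHCO3, then with IWP2 and NaHCO3, then in control, whose libraries overlapped those with 2-DG, then with IWP2 and last with HCl. DKK1 on day 3 ran from NaHCO3 through control, 2-DG and IWP2 with NaHCO3 to HCl and IWP2, which overlapped, and the highest mean was 81.6 times the lowest.

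Where no member was called in a direction, the counts at an unadjusted p under 0.05 in edgeR's quasi-likelihood test were as follows. There were 0 for a rise with IWP2 on days 3 and 5, a fall with NaHCO3 on day 3, and a fall on day 3 or a rise on day 11 when NaHCO3 was added to IWP2. There were 2 for a fall with 2-DG on day 3 (APCDD1, LGR5), 4 for a rise with NaHCO3 on day 5 (AXIN2, NKD1, LEF1, APCDD1) and 3 for a rise on day 5 when NaHCO3 was added to IWP2 (NKD1, SP5, RNF43). There were 3 for a fall with HCl on day 7 (AXIN2, NKD1, RNF43), 1 for a rise on day 7 when NaHCO3 was added to IWP2 (DKK1) and 2 for a rise with IWP2 on day 11 (LEF1, NOTUM). In all of these DESeq2 and limma with a pseudocount of 1 also called 0, and limma with a pseudocount of 0.1 called 1, LGR5 as lower with 2-DG on day 3 (log2 -1.02).

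Pearson's r between members was taken over group means of log2(FPKM + 1), as a description of groups that share libraries and controls. Over the 12 groups of days 3 and 5 the 45 pairs had a median r of 0.39 (from -0.37 to 0.95), and 10 pairs were above 0.7. AXIN2 and NKD1 were the closest pair (0.95), followed by NKD1 with APCDD1 and SP5 with NOTUM (0.91 each), and RNF43 and ZNRF3 were near or below 0 with most members. Over the 13 groups of days 0, 7 and 11 the median r was 0.07 (from -0.60 to 0.84), and 1 pair, AXIN2 with RNF43, was above 0.7. Outside the members, the genes most like AXIN2 by the smaller of its r in the 2 tables, among 6936 genes with a mean of at least 5 FPKM in both, were MRPS27 (0.75 and 0.71), ETAA1 (0.70 and 0.70), GLDC (0.87 and 0.70), SIN3A (0.66 and 0.75) and GTF3C2 (0.67 and 0.65).

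In the deposited GRCh37 annotation AXIN2 lies at chr17:63524681-63557765 (minus strand), NKD1 at chr16:50582241-50670647 (plus), LEF1 at chr4:108968701-109090112 (minus), SP5 at chr2:171571861-171574588 (plus), DKK1 at chr10:54074056-54077802 (plus) and LGR5 at chr12:71833550-71980090 (plus). LGR5 is overlapped on the opposite strand by RP11-186F10.2, which reached 3.96 FPKM, and LEF1 by LEF1-AS1, which reached 0.80 FPKM. Whether counting used strand is not given in the sources used here, so reads of such pairs cannot be told apart.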

How the data were processed

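RNA of H1 cultures was extracted with RNAiso Plus and 1 µg of total RNA went into VAHTS Universal V8 libraries, per the labels' protocols. The deposited tables hold counts and FPKM per gene and library. The submitters' processing notes name cutadapt 1.9.1, HISAT2 2.0.1, HTSeq 0.6.1 and GRCh37, with no settings. The deposited FPKM equalled counts scaled by exonic size and library total (median ratio 1.0000).

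Groups follow the labels. Genes at 1 FPKM or more in at least 2 libraries were tested, 17286 on days 3 and 5 and 18451 on days 0, 7 and 11, on the deposited counts with edgeR 4.0.16 (TMM, robust quasi-likelihood, a mean for each group, fitted on the whole table) in R 4.3.3, with Benjamini-Hochberg adjustment. Members were named in every comparison. Other pathway genes were named with IWP2 or HCl for some lists and days only, by at most the 3 largest changes. Called antagonists outside the members, nuclear factors and, with HCl, receptors were not named. Of the antagonists tested with HCl, 5 of 8 rose and 2 fell on day 5 (against 9.84% and 10.2% of all genes). On day 11, 1 of 11 rose and 6 fell (against 8.37% and 12.7%). With IWP2 on day 11, 0 of 11 rose and 5 fell (against 6.24% and 8.68%). Of 11 nuclear factors 0 rose and 3 fell with HCl on day 5. The members and lists were chosen with earlier results of these data known. A replicate left out was left out on every day compared. On data simulated for NaHCO3 on day 3 (16869 genes), 98% of genes changed 3-fold were called, with 2 unchanged genes. The share for genes changed 2-fold, 52%, follows from the size set for a call, which is itself 2-fold. Every simulated gene had the same spread, and changed genes were drawn only from those with ample counts. Members at low counts were therefore not covered. Alternatives were other size factors, no filter, DESeq2 1.42.0, limma 3.58.1 on log2(FPKM + 1) or log2(FPKM + 0.1), a replicate block, single days and left-out libraries. Deviations of libraries with the same replicate number had a median correlation between groups of 0.00632 on days 3 and 5 (from -0.11 to 0.293). On days 0, 7 and 11 it was -0.00534 (from -0.0595 to 0.0647).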

Additional observations from a re-analysis of the deposited data

Results flagged for a closer look

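Effects of 1 treatment that differed between days, or with and without IWP2, by a test of the difference itself (log2, edgeR's quasi-likelihood test, adjusted over all genes) are listed here, with no explanation weighed. The IWP2 effect on day 5 minus that on day 3 was 3.03 for DKK1 and -1.80 for RNF43, and on day 11 minus day 7 it was 1.03 for RNF43. The HCl effect on day 5 minus day 3 was -1.35 for LEF1, 2.47 for DKK1, -1.09 for RNF43 and 3.51 for LGR5, and on day 11 minus day 7 it was -3.55 for DKK1, 1.24 for RNF43 and -1.26 for LGR5. The NaHCO3 effect on day 5 minus day 3 was -1.79 for NKD1, -2.14 for SP5, -2.89 for DKK1, -1.76 for NOTUM, -1.16 for RNF43 and -2.89 for LGR5. On day 11 minus day 7 it was 2.11 for NKD1, -3.49 for DKK1 and 1.45 for LGR5.

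The NaHCO3 effect with IWP2 minus that without it was -1.01 for AXIN2, -1.29 for NKD1 and -1.22 for APCDD1 on day 3, and 2.04 for SP5, 1.52 for DKK1 and 1.13 for RNF43 on day 5. On day 7 it was -2.49 for SP5, -3.47 for NOTUM and -1.35 for APCDD1. On day 11 it was -3.10 for NKD1, -3.07 for SP5, 3.19 for DKK1, -2.46 for NOTUM and -1.49 for APCDD1. The differences that lost their call without 1 library are named with those libraries beside each result above.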

How the results depend on the processing

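Of 330 tests of members 117 were called, 58 of these under every alternative run for them, and 0 were reversed. With limma on log2(FPKM + 1), which shrinks changes of low genes, the called members went from 15 to 8 for IWP2 against control, 10 to 3 for NaHCO3 added to IWP2, 16 to 4 for 2-DG, 14 to 9 for the control over time, 3 to 1 for the IWP2 effect between days, 7 to 4 for the HCl effect between days, and 14 to 6 for the NaHCO3 effect with IWP2 minus without. The last count ran from 9 (without NaHCO3 replicate 1 or IWP2+NaHCO3 replicate 2) to 13 (without IWP2 replicate 2) with 1 replicate of these groups left out; the cause was not tested. The comparisons of NaHCO3 effects were chosen after seeing the data. A fit with a replicate block kept all 117 calls. The labels do not say whether libraries of the same replicate number shared a batch. Over all genes, 106 called for IWP2 on day 3 went to 42 with day 3 fitted alone and 184 without the filter, and 69 for the day 3 difference of NaHCO3 effects went to 9 and 175. RNF43, NOTUM and APCDD1 were near 1 FPKM in many groups, where depth limits the precision.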
